A study of Mus musculus with 8 samples.

Results

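Epithelial cells of the colon carry a coat of sugar-covered proteins on their apical surface. The genes described here are 4 transmembrane mucins of that coat, Muc1, Muc4, Muc13 and Muc17, and 6 glycosyltransferases that build or cap its glycans, C1galt1, B4galnt2, St3gal4, St3gal6, St6galnac1 and Fut2. These 10 genes of the 26008 listed were chosen by name, with earlier results of the same libraries known, so their genotype values are a description.

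RNA-seq was performed on colon biopsies of 4 penk-/- and 4 penk+/+ chimeric mice, with 1 library per mouse. All recipients were wild-type C57BL/6JRj males, lethally irradiated at 7 weeks of age. They received bone marrow from penk-/- males of the B6.129-Penk-rstm1Pig/J strain or from age-matched penk+/+ males, the donors being 9 to 11 weeks old, and were examined 18 weeks later. The comparison asks whether the colon differs when hematopoietic cells come mostly from donors unable to make proenkephalin, the precursor of the enkephalin opioid peptides. The deletion was therefore in blood-derived cells, and the epithelium that expresses the mucins was that of the irradiated wild-type recipient in both groups. The loss was not complete, as the paper reports Penk mRNA that was reduced, not absent, in splenic T cells of penk-/- chimeras. A biopsy mixes epithelium, muscle, stroma and leukocytes, and fewer cells of a type cannot be told apart from less RNA per cell.

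The libraries held 33.1 to 50.7 M reads. Penk, the targeted gene, ranged from 453 to 616 normalized counts in penk-/- chimeras and from 473 to 636 in penk+/+ chimeras, which does not check the labels because the non-hematopoietic cells of both groups keep the gene. All 12 epithelial markers listed were detected. Pbsn, a gene of male accessory glands, reached 105658 normalized counts in penk-/- replicate 3 and 111024 in penk+/+ replicate 4, against 0 to 13425 in the other libraries, and the log2 fold changes with an unadjusted p below 0.05 are also given without these 2 libraries.

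Transmembrane mucins have a long, densely O-glycosylated extracellular domain anchored in the apical membrane. Their glycans start with N-acetylgalactosamine on serine or threonine, which C1galt1 extends with galactose into core 1, using the chaperone C1galt1c1. St3gal4 and St3gal6 add sialic acid to terminal galactose, B4galnt2 adds N-acetylgalactosamine to sialylated galactose to make the Sd(a) antigen, St6galnac1 places sialic acid on the first sugar, and Fut2 adds the alpha-1,2-linked fucose on which many gut bacteria feed.

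Per kilobase of transcript, the 10 genes spanned a range from dominant to barely detected. Muc13 stood highest, at 44392 ± 6746 normalized counts per kb (SD over 8 mice), followed by Muc17 at 18804 ± 3113. Muc13 exceeded Muc17 per kb in 8 of 8 mice, by 1.88 to 2.61 times. On the scale of normalized counts the order was the reverse, the Muc17 transcript being the longer: Muc17 ranked 3 and Muc13 ranked 15 of the 26008 genes, and their ratio, Muc17 over Muc13, was 1.84 to 2.54.

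St3gal4 led the glycosyltransferases with 5446 ± 1259 normalized counts per kb. Fut2 (1936 ± 272), C1galt1 (1621 ± 213) and St3gal6 (1437 ± 114) followed, and the ranges of neighbours in this order overlapped, although each stood above the next in 8 of 8 mice. B4galnt2 had 861 ± 180 normalized counts per kb. The remaining membrane mucins were much lower, with Muc1 at 277 ± 86.9 and Muc4 at 228 ± 22.1 per kb. Muc1 was above Muc4 per kb in 4 of 4 penk+/+ mice (means of 341 and 231) and in 0 of 4 penk-/- mice (214 and 225), so the order of this pair differed between the genotypes. The margin in penk-/- mice was small, with ratios of Muc1 to Muc4 of at least 0.918. This order depends on the genotype difference of Muc1 given below, which was not called. St6galnac1 came last at 0.866 ± 0.794 per kb. With all annotated exons merged as the length, C1galt1 moved to 842 per kb, below St3gal6 (995) and B4galnt2 (859), and the other places held.

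**Figure D1:**
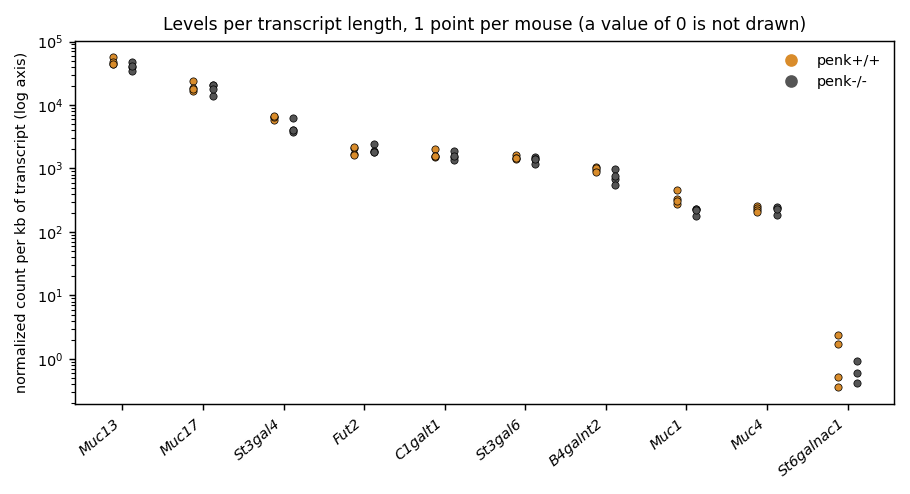
Normalized counts per kb of transcript (log axis) for the 10 genes, ordered by their mean, with 1 point per mouse in the 2 genotypes and a value of 0 not drawn. Muc13 and Muc17 lie above every glycosyltransferase, Muc1 lies above Muc4 in the penk+/+ mice (means of 341 and 231) and not in the penk-/- mice (214 and 225), and St6galnac1 lies near 1.

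The genotypes were compared with limma on log2(normalized count + 1) over 19127 genes with a mean of at least 10. No gene was called at an adjusted p below 0.05, that is 0% of the genes tested, while 1842 had an unadjusted p below 0.05. The paper, using DESeq2 with cut-offs on fold change and FDR, reports a small number of differentially expressed genes between these groups. That test was not repeated here. Of the 10 genes, 9 passed the filter on low values and none of these was called, with adjusted p from 0.339 to 0.922. Of the 9, 3 had an unadjusted p below 0.05, namely Muc1, St3gal4 and B4galnt2, all with lower values in penk-/- chimeras. Over all genes tested, 5.33% had such a p with lower and 4.3% with higher values in penk-/-. The log2 fold change was below 0 for 8 of the 9, with a median of -0.11, against 48.9% of all genes tested and a median of 0.01. Of the 12 epithelial markers described below, 9 were below 0, with a median of -0.13. Of 8 surface colonocyte markers 6 were, with a median of -0.24, and of 7 goblet cell markers 4, with -0.01. The lean was thus not particular to the 9 genes. For Muc4, Muc17 and C1galt1 the sign of the log2 fold change was not stable, as given with each gene.

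**Figure D2:**
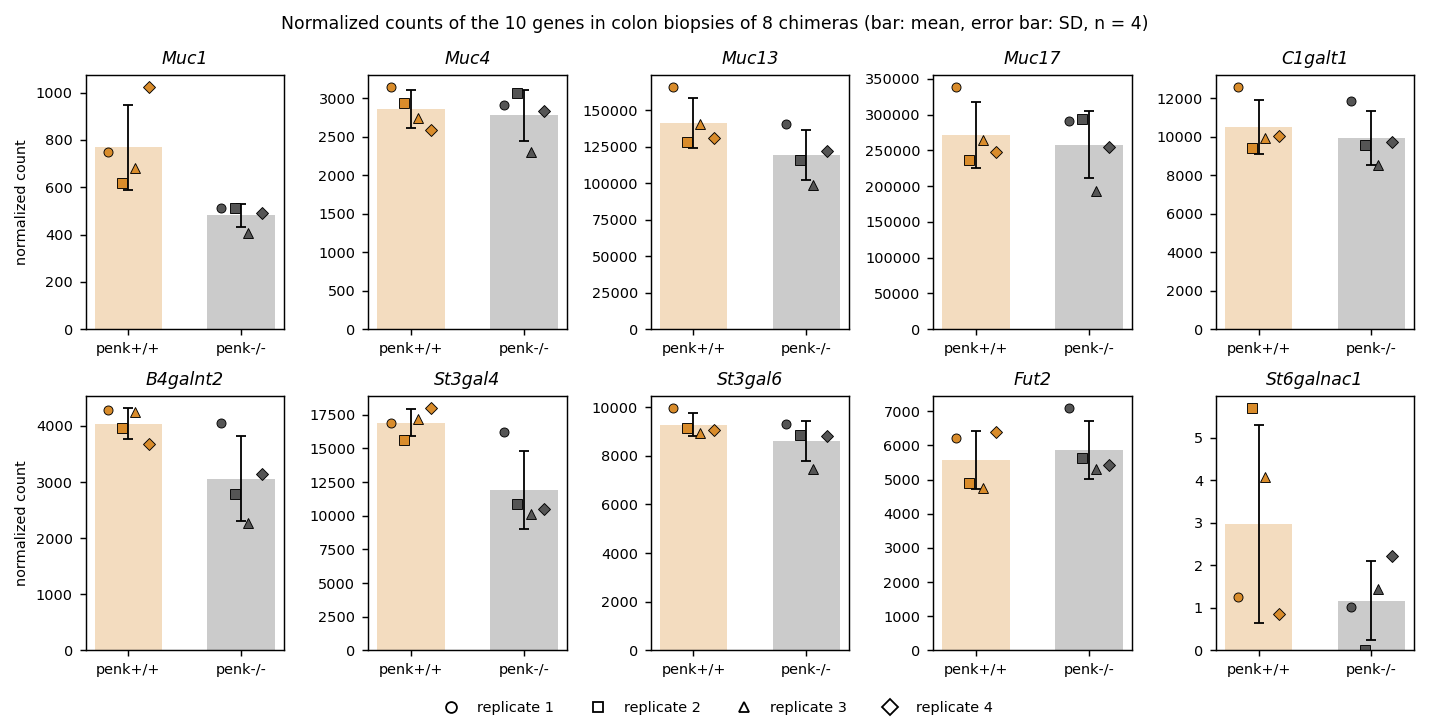
Normalized counts of the 10 genes in each chimera, with bars for the mean and error bars for the SD of 4 mice and 1 symbol per replicate number. Muc1 is the gene whose 4 penk-/- mice (408 to 513) all lie under the 4 penk+/+ mice (619 to 1025), and penk-/- replicate 1 stands among the penk+/+ mice for St3gal4 and B4galnt2.

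Among the membrane mucins, Muc1, whose cytoplasmic tail takes part in signalling, was the one without overlap between genotypes. It lies on chromosome 3, at 89136354 to 89140688 on the plus strand of GRCm39. Its normalized counts were 511, 513, 408 and 493 in penk-/- replicates 1 to 4 and 748, 619, 680 and 1025 in penk+/+ replicates 1 to 4. Every penk-/- mouse was below every penk+/+ mouse, and penk+/+ replicate 4 was far above the others of its group. Groups did not overlap, in this direction, for 2.74% of all genes tested, and in the opposite direction for 2.89%. The means were 481 ± 49.4 and 768 ± 179 (SD, n = 4), the penk-/- mean being 62.7% of the other. By limma, the log2 fold change was -0.65 (SE 0.15, 95% interval -0.99 to -0.31), with an unadjusted p of 0.00185 and an adjusted p of 0.339. Without the 2 libraries with most Pbsn, which are the lowest penk-/- and the highest penk+/+ value of Muc1, the log2 fold change was -0.43 and the groups still did not overlap, as was so in this direction for 7.62% of all genes tested with 3 mice against 3. The gene rested on 446 to 1195 reads per library.

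The 300 bases around the RefSeq start of Muc1 (250 before and 50 after; sequence from the RefSeq table of GRCm38.p6, placed by exact match at chr3:89136113-89136412 on the plus strand of GRCm39) are shown because Muc1 was the gene that separated the genotypes. Capitals mark 1 TATA box (TATAAA), at bases -31 to -26 from the start, and 2 GC boxes (GGGCGG, searched on both strands). Of 32544 promoters of this length, 13.6% hold such a TATA box and 35.9% a GC box.
Muc1: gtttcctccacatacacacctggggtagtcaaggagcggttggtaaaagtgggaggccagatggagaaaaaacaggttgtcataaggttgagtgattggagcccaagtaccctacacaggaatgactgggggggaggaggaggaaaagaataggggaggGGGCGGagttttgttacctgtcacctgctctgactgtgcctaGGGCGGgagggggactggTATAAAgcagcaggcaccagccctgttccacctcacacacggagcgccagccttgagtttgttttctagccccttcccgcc

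Muc13, the abundant membrane mucin of the colon surface, lies on chromosome 16, at 33614407 to 33640304 on the plus strand. It had 140944, 115848, 99142 and 122538 normalized counts in penk-/- replicates 1 to 4, and 166334, 128684, 140473 and 130841 in penk+/+ replicates 1 to 4. Replicate 1 was the highest mouse of each genotype, and only that penk-/- mouse reached the range of the penk+/+ mice. Its log2 fold change was -0.25 (SE 0.14, 95% interval -0.55 to 0.06; limma adjusted p = 0.608), and it lay between -0.33 and -0.16 in all 17 alternative settings.

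Muc17, a membrane mucin of the enterocyte brush border, lies on chromosome 5, between 137163770 and 137202830 of the minus strand. Counts after normalization were 290520, 294443, 192845 and 254754 in penk-/- replicates 1 to 4 and 339100, 236142, 264695 and 247274 in penk+/+ replicates 1 to 4. The groups overlapped, with the extremes set by penk-/- replicate 3 and penk+/+ replicate 1. For Muc17 the log2 fold change was -0.08 (SE 0.18, 95% interval -0.48 to 0.32; limma adjusted p = 0.922). It changed sign under quantile normalization, to 0.08, and without either of those extreme libraries, without the 2 libraries with most Pbsn, and with the epithelial score described below as a covariate.

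Muc4, a large membrane mucin that can bind the receptor Erbb2, lies on chromosome 16, at 32555015 to 32602754 on the plus strand. It had 2303 to 3067 normalized counts in penk-/- and 2583 to 3151 in penk+/+ chimeras. The ranges overlapped and the log2 fold change was -0.04 (SE 0.10, 95% interval -0.26 to 0.18; limma adjusted p = 0.922), turning to 0.04 without penk-/- replicate 3. Muc4 also had the smallest spread of the 4 mucins, with a coefficient of variation of 9.69% over the 8 mice against 31.3% for Muc1.

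**Figure D3:**
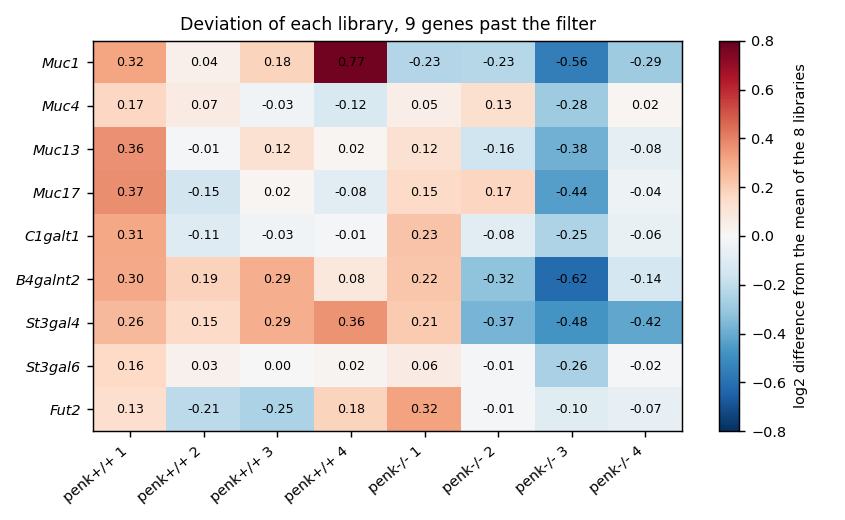
Log2 difference of each library from the mean of the 8 libraries for the 9 genes past the filter. Penk-/- replicate 3 is below the mean for all 9 genes (-0.62 for B4galnt2 to -0.10 for Fut2), penk+/+ replicate 1 is above it for all 9, and Muc1 in penk+/+ replicate 4 (0.77) is the largest deviation.

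Of the glycosyltransferases, St3gal4 showed the widest gap between most mice of the 2 genotypes. The gene spans 34957872 to 35034889 on the minus strand of chromosome 9. It had normalized counts of 16223, 10845, 10091 and 10525 in penk-/- replicates 1 to 4 and 16849, 15591, 17180 and 18018 in penk+/+ replicates 1 to 4. Penk-/- replicates 2, 3 and 4 were close together and below every penk+/+ mouse, while penk-/- replicate 1 lay within the penk+/+ range. The log2 fold change over all mice was -0.53 (SE 0.14, 95% interval -0.84 to -0.22), with an unadjusted p of 0.00392 and a limma adjusted p of 0.341. Without the 2 libraries with most Pbsn it was -0.43. Without penk-/- replicate 1 it was -0.69 (SE 0.07), with an adjusted p of 0.0361, in a fit that called 6 genes or 0.0313% of those tested. Leaving out the highest penk-/- value widens the difference by construction, so this p gives no support. With any other single library left out, the limma adjusted p of St3gal4 was 0.347 to 0.633.

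Penk-/- replicate 1 differed in more than St3gal4. Without penk-/- replicate 1, 5 of the 9 genes had penk-/- values that were all below the penk+/+ values (Muc1, Muc13, St3gal4, St3gal6 and B4galnt2), where 6.68% of all genes tested did so with 3 mice against 4. That library held the highest penk-/- value of each of these genes but Muc1, so leaving it out favours such a separation. The same library had a fibroblast score (mean log2 deviation of 5 marker genes) of -0.26, against 0.21 to 0.28 in the other penk-/- mice, and the highest surface colonocyte score of its group, 0.27. The part of these differences in the St3gal4 values was not tested.

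The RefSeq window of St3gal4 (chr9:35028111-35028410, minus strand of GRCm39) is shown because St3gal4 was the glycosyltransferase with the largest log2 fold change. Its start lies 6729 bases inside the gene's outermost GENCODE start. Capitals mark 3 GC boxes in a row, read here on the opposite strand as CCGCCC, at bases -33 to -14.
St3gal4: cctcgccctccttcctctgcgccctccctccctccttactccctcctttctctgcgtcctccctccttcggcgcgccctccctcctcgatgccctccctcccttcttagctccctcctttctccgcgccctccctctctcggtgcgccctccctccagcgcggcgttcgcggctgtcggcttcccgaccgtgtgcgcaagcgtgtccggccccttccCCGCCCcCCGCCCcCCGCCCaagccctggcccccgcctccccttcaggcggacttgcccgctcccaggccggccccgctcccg

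B4galnt2, on chromosome 11 at 95754392 to 95805752 on the minus strand, resembled St3gal4. It had 4047, 2786, 2268 and 3149 normalized counts in penk-/- replicates 1 to 4 and 4281, 3955, 4251 and 3683 in penk+/+ replicates 1 to 4. Again penk-/- replicate 1 was within the penk+/+ range and the other 3 penk-/- mice were below it. The log2 fold change was -0.43 (SE 0.15, 95% interval -0.77 to -0.09), with an unadjusted p of 0.0187 and a limma adjusted p of 0.435, and it was -0.34 without the 2 libraries with most Pbsn. Over the 8 libraries, log2 levels of B4galnt2 and St3gal4 had a Pearson r of 0.90, and of 0.79 within genotypes, given as a description over libraries that share their composition.

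The RefSeq windows of B4galnt2 (chr11:95805648-95805947, minus strand of GRCm39) and Muc13 (chr16:33614157-33614456, plus strand), the first of the 2 Muc13 starts in the table, are shown together because these genes had one of the highest correlations among the 36 pairs, with r = 0.92 over 8 libraries. Capitals mark 1 GC box in B4galnt2, at bases -71 to -66, and 1 STAT-type site (TTCNNNGAA) in Muc13, at bases -140 to -132, a sequence held by 8.33% of all promoters. No motif searched was in both windows. The E-box (CACGTG, in 7.17% of promoters), the D-box (TTATGNAA, in 3.39%) and the HNF1 motif (GTTAAT, in 7.13%) were in none of the 4 windows shown, but the window of the second Muc13 start, not shown, held the HNF1 motif at bases -61 to -56.
B4galnt2: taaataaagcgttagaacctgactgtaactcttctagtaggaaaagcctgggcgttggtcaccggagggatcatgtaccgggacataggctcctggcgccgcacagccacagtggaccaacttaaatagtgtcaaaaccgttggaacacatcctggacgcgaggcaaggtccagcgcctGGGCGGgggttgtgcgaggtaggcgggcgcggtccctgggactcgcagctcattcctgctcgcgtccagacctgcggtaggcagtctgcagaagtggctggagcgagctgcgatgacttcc
Muc13: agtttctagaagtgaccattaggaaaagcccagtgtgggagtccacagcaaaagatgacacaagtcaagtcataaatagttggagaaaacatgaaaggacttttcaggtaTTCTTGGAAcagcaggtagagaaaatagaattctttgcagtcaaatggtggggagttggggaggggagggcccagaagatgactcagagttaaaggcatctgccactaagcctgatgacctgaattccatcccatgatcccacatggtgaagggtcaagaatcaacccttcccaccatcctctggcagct

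St3gal6, on chromosome 16 at 58286438 to 58344780 on the minus strand, was the steadiest gene of the 10. It ranged from 7444 to 9320 normalized counts in penk-/- and from 8926 to 9969 in penk+/+ chimeras, and its coefficient of variation was 7.92%. The genotypes overlapped except for penk-/- replicate 3 and, just below the penk+/+ range, replicates 2 and 4. Its log2 fold change was -0.11 (SE 0.08, 95% interval -0.29 to 0.07; limma adjusted p = 0.696). The ratio of St3gal4 to St3gal6 normalized counts was 1.19 to 1.74 in penk-/- and 1.69 to 1.99 in penk+/+ chimeras, with medians of 1.29 and 1.82, and only penk-/- replicate 1 reached the penk+/+ range.

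C1galt1, on chromosome 6 at 7844634 to 7875687 on the plus strand, had 8543 to 11867 normalized counts in penk-/- and 9425 to 12594 in penk+/+ chimeras, again with replicate 1 highest in both genotypes. Its log2 fold change was -0.08 (SE 0.12, 95% interval -0.35 to 0.18; limma adjusted p = 0.870), and turned to 0.01 without penk+/+ replicate 1. Its chaperone C1galt1c1 had 2048 ± 115 and 1991 ± 169 normalized counts (SD, n = 4), a log2 fold change of 0.04.

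Fut2, on chromosome 7 at 45298015 to 45315818 on the minus strand, had 5307 to 7104 normalized counts in penk-/- and 4754 to 6409 in penk+/+ chimeras. It was the gene of the 9 with a log2 fold change above 0, at 0.08 (SE 0.13, 95% interval -0.21 to 0.36; limma adjusted p = 0.890), and this became -0.02 without penk-/- replicate 1, the highest mouse. The neighbouring fucosyltransferase genes Fut2 and Sec1 resemble each other in sequence, and how shared reads were counted is not given in the sources used here.

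St6galnac1, on chromosome 11 at 116655851 to 116666333 on the minus strand, was close to absent from the table. It had 1, 0, 2 and 2 reads in penk-/- and 1, 6, 4 and 1 reads in penk+/+ replicates 1 to 4, or 17 reads in all, and did not pass the filter, so no fold change is given. The other enzymes that place sialic acid on N-acetylgalactosamine are named here after their values were seen. As a mean over 8 mice, St6galnac6 had 28183, St6galnac4 had 2344 and St6galnac2 had 1125 normalized counts. St6galnac3 had 30.2 and St6galnac5 had 27.5. No other gene overlaps St6galnac1 in the GENCODE M39 annotation. The Ensembl gene models on which the authors counted were not compared here.

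In the annotation, antisense genes overlap several of these loci, among them Muc20 (53 normalized counts on average) at the Muc4 locus, Dcbld2 (638) at the St3gal6 locus and 4930581F22Rik (460) at the St3gal4 locus. The libraries were made with a stranded kit, but whether counting used the strand is not given in the sources used here.

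Beyond the 10 genes, a list of 99 other mucins, O-glycan enzymes, sugar-nucleotide enzymes and transporters was read out, of which 92 were found and 86 tested. None had an adjusted p below 0.05. Of the 86, 3 had an unadjusted p below 0.05 with lower values in penk-/- and 2 with higher values, each a smaller share than over all genes tested. With the epithelial score as a covariate, however, 14 of the 86 had such a p, 4 of them with lower values in penk-/-. Over all genes tested, 11.8% had such a p in that fit, and 51.2% of these were lower. The median log2 fold change was -0.02, and 49 of the 86 values were below 0.

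B4galnt3, which makes LacdiNAc by adding N-acetylgalactosamine to N-acetylglucosamine, had 6061, 6207, 5298 and 6004 normalized counts in penk-/- and 7186, 7034, 7363 and 6578 in penk+/+ replicates 1 to 4. All penk-/- mice were below all penk+/+ mice, with a log2 fold change of -0.26. Gal3st2, a galactose 3-O-sulfotransferase, was also without overlap, at 863 ± 108 and 1055 ± 85.1 normalized counts (SD, n = 4) and a log2 fold change of -0.30, though the highest penk-/- and lowest penk+/+ mouse both had 977. Fut8, the core fucosyltransferase of N-glycans, had a log2 fold change of -0.21.

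In the other direction, St6galnac4, which sialylates the inner sugar of sialylated core 1, had 2774, 2614, 2533 and 2563 normalized counts in penk-/- and 1844, 2034, 1889 and 2502 in penk+/+ replicates 1 to 4. Every penk-/- mouse was above every penk+/+ mouse, with penk+/+ replicate 4 just under them, and its log2 fold change was 0.35. Slc35b2, a transporter of the sulfate donor whose locus overlaps the abundant antisense gene Hsp90ab1, had a log2 fold change of 0.20. Without the 2 libraries with most Pbsn, the values were -0.24 for B4galnt3, -0.25 for Gal3st2, -0.23 for Fut8, 0.46 for St6galnac4 and 0.30 for Slc35b2.

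By role, the tested genes were 5 other membrane mucins, 2 gel-forming mucins, 16 initiating transferases, 5 core and branch enzymes, 11 extension enzymes, 17 sialylation genes, 11 fucosylation genes, 10 sulfation genes and 9 nucleotide sugar genes. Median log2 fold changes lay between -0.26, for the core and branch genes, and 0.27, for the 2 gel-forming mucins. The latter is only the midpoint of Muc2 and the low gene Muc6, named after its values were seen. Muc6 had 17.0 normalized counts on average and a log2 fold change of 0.61 (limma adjusted p = 0.678). Muc2, the secreted mucin of the colonic mucus, had 116368 ± 19994 and 121569 ± 17527 normalized counts (SD, n = 4), and its log2 fold change was -0.07. Muc3a (3504 and 3171), named after its values were seen, and Muc12 (122 and 127), membrane mucins encoded near Muc17, had log2 fold changes of 0.14 and -0.07. B3gnt6, the core 3 enzyme, was low in the table, at 25.8 ± 6.72 and 30.4 ± 4.67 normalized counts. Its locus is overlapped by the antisense gene Gm16938 (45.5 normalized counts on average), and whether reads were lost to that overlap was not tested. Muc3 was not found by that name, which in the RefSeq promoters was taken as that of Muc17.

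**Figure D4:**
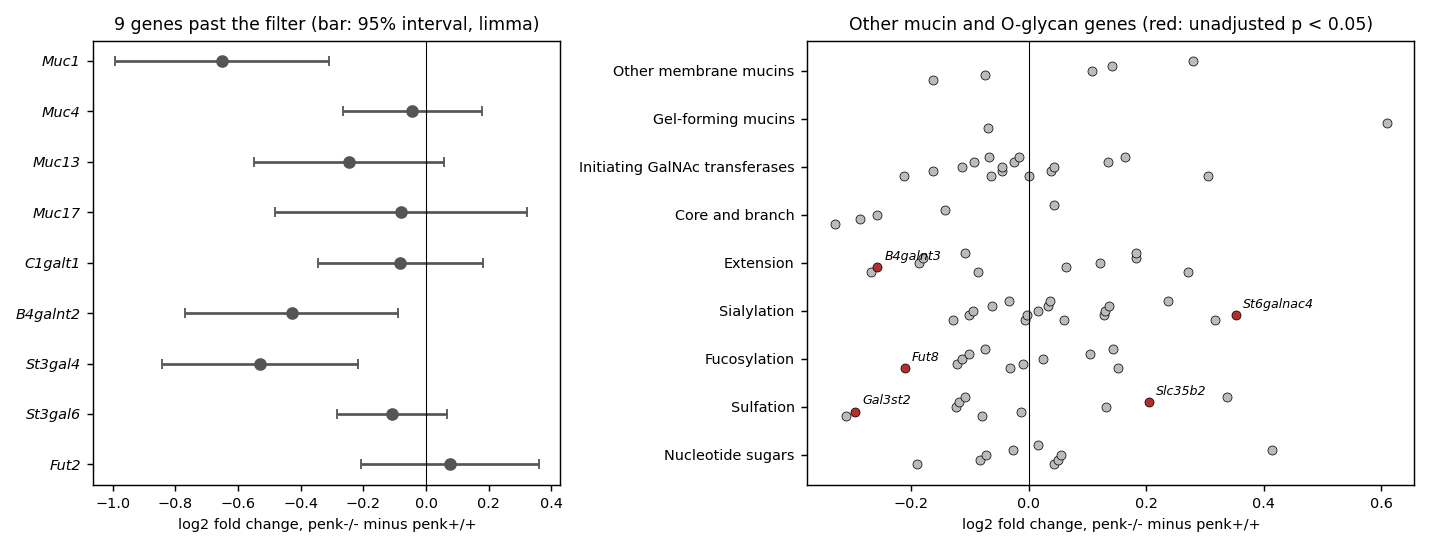
Left, log2 fold change (penk-/- minus penk+/+) of the 9 genes past the filter with 95% intervals from limma on 4 mice per genotype, where the intervals of Muc1, St3gal4 and B4galnt2 do not reach 0. Right, the same quantity for 86 other mucin and O-glycan genes by role, 1 point per gene, with the 5 genes of unadjusted p below 0.05 named.

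The levels of these genes were set beside the amount of epithelium in each biopsy. The epithelial score (mean log2 deviation of 12 marker genes, such as Epcam and Cdh1) averaged -0.04 in penk-/- and 0.04 in penk+/+ chimeras. The summed level of those markers was 522622 to 702310 and 634145 to 755157 normalized counts, and 9 of the 12 had a log2 fold change below 0. The score was lowest in penk-/- replicate 3 (-0.29) and highest in penk+/+ replicate 1 (0.20). These libraries were also lowest and highest for Muc4, Muc13, Muc17, C1galt1, B4galnt2 and St3gal6. Penk-/- replicate 3 was also among the 2 libraries with most Pbsn, and the part of accessory gland tissue in its score was not tested. For the 8 surface colonocyte markers the difference of scores was -0.18, with 6 of 8 below 0, and their summed level was 234788 to 375016 and 293511 to 426329 normalized counts. For the 7 goblet cell markers the difference was 0.01, and for the 5 crypt base and cycling markers it was 0.30, with all 5 log2 fold changes above 0. For the 5 fibroblast markers it was 0.23, also with all 5 above 0. Their part in the values of the 9 genes was not tested.

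Over 8 libraries, the log2 level of St3gal6 followed the epithelial score with Pearson r = 0.91 (exact permutation p = 0.00233, adjusted over 9 relations 0.0117) and Spearman rho = 0.79 (exact permutation p = 0.0279, adjusted 0.103). For C1galt1, r was 0.88 (exact permutation p = 0.00260, adjusted 0.0117) and rho was 0.83 (exact permutation p = 0.0154, adjusted 0.103). For Muc13, r was 0.83 (exact permutation p = 0.0149, adjusted 0.0436) and rho was 0.74 (exact permutation p = 0.0458, adjusted 0.103). For Muc17, r was 0.80 (exact permutation p = 0.0194, adjusted 0.0436) and rho was 0.52 (exact permutation p = 0.197, adjusted 0.278). Within genotypes these values of r were 0.92, 0.87, 0.86 and 0.80. What share of all genes tested follows the score as closely was not examined. The relations are therefore not shown to be particular to these genes.

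Without the 2 libraries farthest from the median score, penk-/- replicate 3 and penk+/+ replicate 1, r fell to 0.23 for Muc13, 0.11 for Muc17, 0.56 for St3gal6 and 0.71 for C1galt1. The high r of Muc13 and Muc17 over all libraries thus depended on those 2. Leaving out both ends of the score also narrows its range, which can lower r by itself. For Muc4, r turned from 0.68 to -0.29, whereas for Fut2 it went from 0.68 to 0.91. For the genes with the largest genotype differences, r was 0.55 for Muc1 (exact permutation p = 0.162), 0.57 for St3gal4 (exact permutation p = 0.130) and 0.70 for B4galnt2 (exact permutation p = 0.0484, adjusted 0.0829) over all libraries, and without the same 2 libraries it was 0.10, 0.17 and 0.07. With the epithelial score as a covariate, the log2 fold changes were -0.58 for Muc1, -0.46 for St3gal4, -0.33 for B4galnt2 and -0.16 for Muc13, while those of Muc4, Muc17 and C1galt1 were between 0.00 and 0.03.

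**Figure D5:**
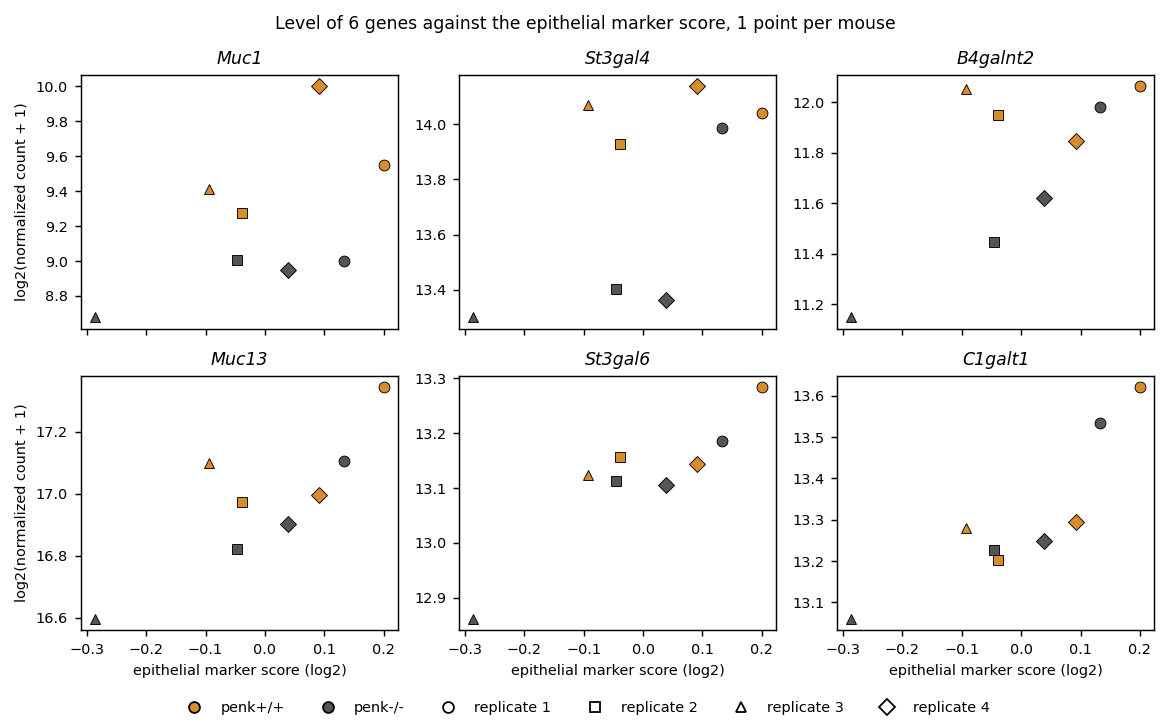
Log2(normalized count + 1) of 6 genes against the epithelial marker score (log2 units), 1 point per mouse, with colour for the genotype and symbol for the replicate number. Penk-/- replicate 3, at a score of -0.29, is lowest for all 6 genes, and penk-/- replicates 2 and 4 lie below penk+/+ mice of similar score for Muc1, St3gal4 and B4galnt2.

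The genes also varied together. The 36 pairs among the 9 genes had Pearson r from 0.17, for Muc1 with Muc4, to 0.92, for Muc13 with St3gal6, and the median was 0.64. These values are over 8 libraries that share genotype and biopsy composition. Muc1 with St3gal4 had r = 0.80 over all libraries but 0.42 within genotypes, whereas Muc13 with C1galt1 had 0.89 and 0.96.

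In the whole table, the genes whose log2 levels were most like each member's over the 8 libraries were named by rank of Pearson r. Muc13 was closest to Fam3b (0.99), Kif13b and Rhbdl2. St3gal6 was closest to Ceacam20 (0.99), Styk1 and Sema4g. B4galnt2 was closest to Parp9 (0.99), Pmaip1 and Snx5, and C1galt1 to Tent5a (0.99), Ivns1abp and Apc. Muc17 was closest to Rap1gds1 (0.98), Gm1123 and Cpd, Muc4 to Npas2 (0.98), Casp2 and Ces2g, and Fut2 to Tnks2 (0.97), Shoc2 and Gm12786.

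The genes most like Muc1 were 0610005C13Rik (0.97), Ganc and Spmip11. The first of these had mean normalized counts of 313 and 486 in penk-/- and penk+/+ chimeras. Its log2 fold change was -0.62 (SE 0.13, limma adjusted p = 0.323) and its groups did not overlap. The genes most like St3gal4 were Gm20186 (0.99), Gm30698 and Cyp2d34-ps. The first 2 had log2 fold changes of -0.24 and -0.53, and Cyp2d34-ps, a pseudogene with 85.1 normalized counts on average, had one of -1.37 (limma adjusted p = 0.353). These genes were picked by their likeness to Muc1 or St3gal4 over the same libraries. That choice favours a similar genotype difference, so their values give no support to those of Muc1 and St3gal4.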

How the data were processed

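Total RNA of frozen colon biopsies was sequenced as stranded, paired-end, poly-A libraries. Per the labels and the study's methods, reads were checked with FastQC and aligned and quantified with STAR 2.7.8a on GRCm39 with the Ensembl annotation, and DESeq2 1.30.0 was used by the authors. The deposited values are a gene-level signal, called normalized counts here: read counts divided by the authors by a size factor per library. In each library 100% of values were whole multiples (within 0.001 of a step) of the value of 1 read, from which depths of 33.1 to 50.7 M reads were obtained. At this depth the spread between mice limits the precision for the well-covered genes. For genes with few reads, such as St6galnac1, B3gnt6, Gm30698 and Gm12786, counting error adds to it.

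Genes were named from GENCODE M39 of GRCm39, and 25776 of 26008 identifiers matched. Lengths are those of its canonical transcripts. Genotypes were taken from the sample titles. The two-sided test was that of limma 3.58.1 under R 4.3.3, with a variance trend, on log2(value + 1), for genes with a mean of at least 10, with Benjamini-Hochberg adjustment over all 19127 genes tested. A fold change on this scale understates the change of low genes. P-values measure the spread between mice. The labels give no batch, and no 2 libraries agreed within sampling noise (chi-square per degree of freedom of at least 10.2).

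The genes and lists were chosen with earlier results of these data known. Named were the 10 genes, pathway genes with an unadjusted p below 0.05 where none had an adjusted one, 5 fixed pathway genes (C1galt1c1, B3gnt6, Muc2, Muc12 and Muc3), the 3 genes most like each member, Penk and Pbsn. Muc3a, Sec1 and a few other genes were named after their values were seen. A marker score is the mean over the list of log2(value + 1) minus the gene's mean over the 8 libraries. Alternatives were a pseudocount of 0.1 or 8, a minimum mean of 50 or none at all, no variance trend, quantile normalization, a replicate block, the epithelial score as a covariate, and libraries left out. Promoters are RefSeq's, of GRCm38.p6, and held 8 of the 10 genes, with Muc17 under the name Muc3. Their positions are unique exact matches in GRCm39, computed with Python 3.11.15 and numpy 2.4.6, except for Muc17, whose window had no such match. Exact permutation tests enumerated all orders of 8 libraries.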

Additional observations from a re-analysis of the deposited data

Results flagged for a closer look

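In penk-/- replicate 1, St3gal4 stood apart from its group, with 16223 normalized counts against 10091 to 10845 in the other 3 mice, a gap of 0.877 of the group's range. The fibroblast score of the same library was -0.26 against 0.21 to 0.28, a gap of 0.869 of the range. Of 40 groups of 4 libraries examined, 2 had a gap above the 95% limit for a single far value, and chance alone would give about 2.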

How the results depend on the processing

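Of 17 alternative settings, all gave lower Muc1, Muc13, St3gal4, St3gal6 and B4galnt2 values in penk-/- chimeras, and all but 1 left every one of the 9 genes short of an adjusted p below 0.05. Across them, leaving-out included, the log2 fold change ranged from -0.75 to -0.43 for Muc1 (adjusted p 0.151 to 0.633), from -0.69 to -0.43 for St3gal4 (0.0361 to 0.633), from -0.57 to -0.30 for B4galnt2 (0.210 to 0.688) and from -0.15 to -0.04 for St3gal6. Leaving out 1 library gave 0 to 6 genes called over the whole table and 0 to 1 of the 9, the upper values being without penk-/- replicate 1. It gave 1 to 5 of the 9 without overlap, with 5 without penk-/- replicate 1 and 2 without penk+/+ replicate 2, all lower in penk-/-, where 6.68% and 3.94% of all genes tested were so (3.76% to 6.68% over the libraries left out). It also gave 4 to 10 O-glycan pathway genes with an unadjusted p below 0.05. The whole table had 1 gene called under quantile normalization, the replicate block or the epithelial covariate. The pathway count was 5 in the reported fit, 11 under quantile normalization and 12 with the replicate block. It was 10 without the 2 libraries with most Pbsn and 14 with the epithelial covariate. The genes among them with lower values in penk-/- numbered 3, 4, 7, 3 and 4, in that order. The cause of these changes was not tested. Over all genes tested the share with an unadjusted p below 0.05 was 9.63% in the reported fit and 9.89%, 15.4%, 9.06% and 11.8% in those settings.

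The small log2 fold changes changed sign. That of Muc17 was 0.0801 under quantile normalization, 0.0133 without the 2 libraries with most Pbsn and 0.0251 with the epithelial covariate, and -0.150 to 0.0540 with 1 library left out. With the covariate, Muc4 was at 0.00895 and C1galt1 at 0.00248. With 1 library left out, Muc4 ranged from -0.0940 to 0.0437, C1galt1 from -0.171 to 0.00873 and Fut2 from -0.0191 to 0.148.

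The labels do not say whether the replicate numbers pair the mice. Deviations from the genotype means in same-numbered libraries had correlations of 0.15, -0.04, -0.32 and -0.16. These values cannot exclude a shared cage or day. The replicate block called 1 gene in the whole table and none of the 9. With it, 15.4% of all genes tested had an unadjusted limma p below 0.05, against 9.63% without it. The 2 planned count-model tests on recovered reads were not run. St6galnac1, with 17 reads, was too shallow for a comparison.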
